A study of Homo sapiens with 4 samples.

Results

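The 37 genes described here are the human E2 enzymes and their relatives whose symbols begin with UBE2 followed by a letter, out of 19205 genes in the deposited table. Of these, 31 encode ubiquitin-conjugating enzymes, enzymes for ubiquitin-like modifiers or E2 variants without catalytic activity. The other 6 are the readthrough gene UBE2F-SCLY, the copy UBE2NL and the pseudogenes UBE2MP1, UBE2Q2P1, UBE2Q2P2 and UBE2Q2P3. Their RNA was measured by RNA-seq of oligo(dT)-enriched mRNA in LNCaP, a human cell line derived from prostate cancer that responds to androgens. One group of 2 libraries carried the empty vector, and the other group of 2 had HOXD13 overexpression. HOXD13 is a homeobox transcription factor. All 4 had gone through lentivirus infection and puromycin selection, and the labels do not say whether the cells were a clone or a pool. The labels name no separate cultures within a group, and the p-values therefore speak of library-to-library spread, possibly only technical.

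Conjugation of ubiquitin runs through a chain of enzymes. An E1 activates ubiquitin, an E2 carries it on a catalytic cysteine, and an E3 ligase brings the loaded E2 to the substrate. The E2 often sets the type of chain that is built, from chains that send a protein to the proteasome to chains that act as signals. SUMO, NEDD8 and ISG15 are small proteins related to ubiquitin and have E2 enzymes of their own.

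Libraries held 6881110 to 8530487 expected counts, of which 21054 to 24852 fell on the 37 genes. HOXD13 counts were 0 and 0 under the empty vector and 88 and 104 under HOXD13. Levels are given as the authors' FPKM (fragments per kilobase of transcript, scaled to library size). On that scale HOXD13 had 0 and 0 with the empty vector and 4.41 and 5.33 FPKM with HOXD13 overexpression. All 10 luminal prostate markers reached at least 48.8 FPKM in every library. Their sums were 3633 to 3669 against 4969 to 5080 FPKM (empty vector against HOXD13). A single marker reached 3255 FPKM, so the sums do not show that all 10 rose. Summed levels of other cell types' markers were 6.24 to 7.21 against 6.48 to 6.89 FPKM for 4 fibroblast genes and 37.4 to 41.3 against 42.3 to 43.8 FPKM for 6 leukocyte genes, mostly LYZ, with CD3E and ITGAM at 0. They were 2.94 to 3.13 against 4.15 to 4.31 FPKM for 4 endothelial genes and 1.24 to 1.67 against 3.36 to 3.78 FPKM for the basal keratin KRT14. The part of these markers in the results was not tested.

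The comparison asked whether E2 genes differ when HOXD13 is overexpressed. Of the 35 genes with enough counts to test, 5 fell, 0 rose and 30 were not called. A call is an adjusted p under 0.05 in edgeR's quasi-likelihood test, with Benjamini-Hochberg adjustment over all 14112 genes tested. The 5 that fell were UBE2M, UBE2L3, UBE2V2, UBE2S and UBE2D3, by 10.9% for UBE2D3 up to 17.2% for UBE2M. They are 14.3% of the tested E2 genes, where 8.11% of all tested genes fell, 7.91% rose and 16.0% were called in either direction. At an unadjusted edgeR p under 0.05, 10 E2 genes were lower and 1, UBE2H, was higher. The DESeq2 Wald test called 4 lower and 0 higher, and limma on log2(FPKM + 1) called 2 lower, UBE2M and UBE2W, and 0 higher. Omitting empty-vector replicate 1 left 2 falls, and omitting empty-vector replicate 2 left 3.

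How often a gene was called varied with its level. At a mean of 20 FPKM or more, a limit chosen after the values were seen, 20.9% of all tested genes fell, and their median log2 fold change was -0.06. That was 910 lower of 4347 genes, with 541 higher. The 16.0% set beside partner lists further on is over genes of all levels. Above that limit 5 of 21 E2 genes fell (23.8%), at a median of -0.10. Below it 2.40% of all tested genes fell at a median of 0.04, and 0 of 14 E2 genes were called at a median of 0.01. At an unadjusted edgeR p under 0.05 the count was also 0, and limma called 1. DESeq2 called 0, but it gave no adjusted p for 9 UBE2 genes and could not call those. The share of E2 genes that fell is thus near that among genes of like abundance. Over the 35 tested E2 genes the median was -0.07, with 25 values below 0 and 10 above, against a median of 0.0038 over all tested genes.

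**Figure D1:**
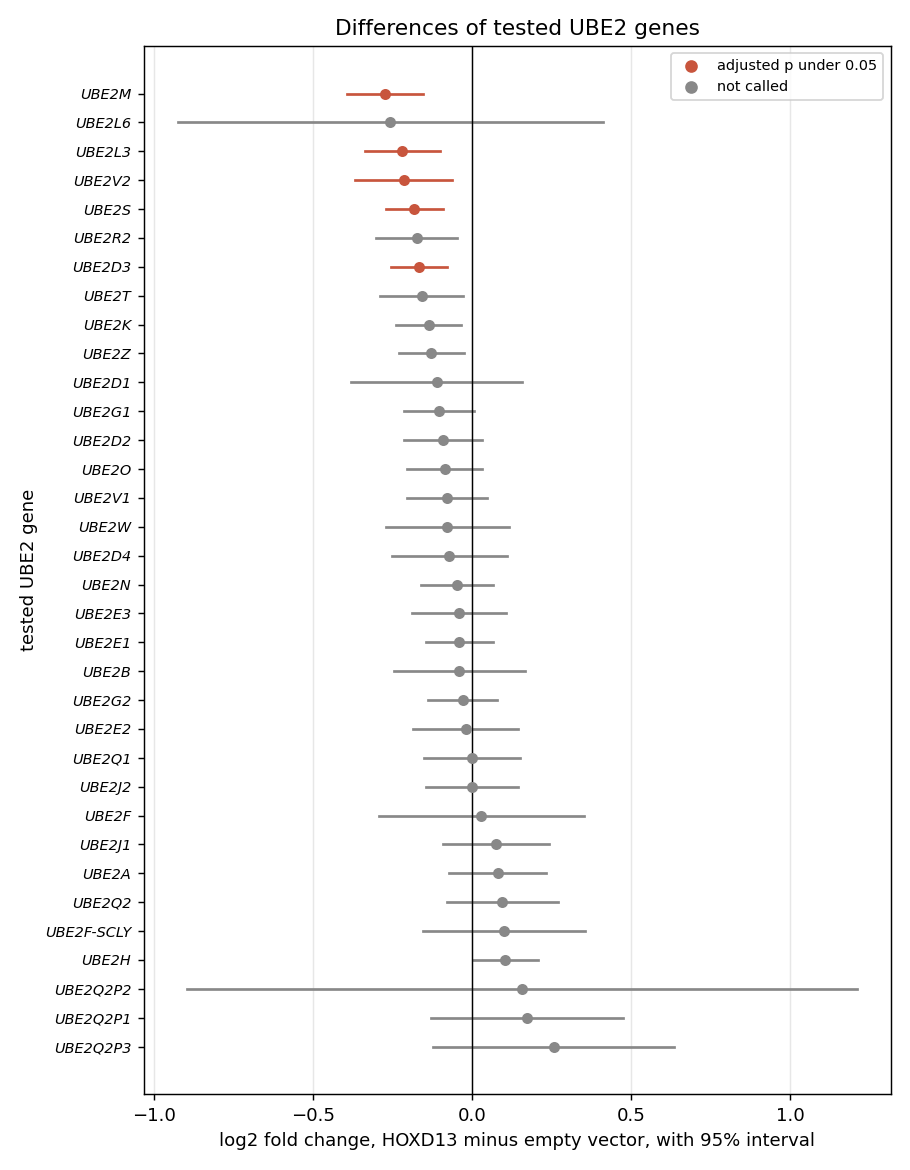
Log2 fold change of tested UBE2 genes (x axis, HOXD13 minus empty vector, from counts) with 95% intervals, ordered from lowest to highest; red marks the 5 genes with an adjusted p under 0.05. The values run from -0.27 for UBE2M to 0.26 for UBE2Q2P3, and the interval of UBE2Q2P2 is the widest shown.

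Promoters are shown for the genes that fell and have a printable entry. The RefSeq promoter table (GRCh38.p14) holds 38 entries for 26 of the 37 genes, each from 250 bases before a transcript start to 50 bases after it. Printed here are UBE2M (chr19:58558562-58558861, minus strand), UBE2S (chr19:55407739-55408038, minus strand), UBE2L3 (chr22:21549197-21549496, plus strand) and UBE2D3 (chr4:102868846-102869145, minus strand, the first of 6 listed starts). UBE2T (chr1:202341887-202342186, minus strand) is added as an uncalled member that holds letters of a pair of the motifs. Capitals mark matches to any of 7 motifs searched on both strands.
UBE2M: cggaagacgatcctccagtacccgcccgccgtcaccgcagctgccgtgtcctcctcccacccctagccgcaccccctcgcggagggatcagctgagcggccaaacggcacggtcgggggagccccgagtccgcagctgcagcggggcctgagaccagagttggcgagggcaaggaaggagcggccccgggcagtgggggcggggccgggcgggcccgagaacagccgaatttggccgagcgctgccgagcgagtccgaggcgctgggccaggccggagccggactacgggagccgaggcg
UBE2S: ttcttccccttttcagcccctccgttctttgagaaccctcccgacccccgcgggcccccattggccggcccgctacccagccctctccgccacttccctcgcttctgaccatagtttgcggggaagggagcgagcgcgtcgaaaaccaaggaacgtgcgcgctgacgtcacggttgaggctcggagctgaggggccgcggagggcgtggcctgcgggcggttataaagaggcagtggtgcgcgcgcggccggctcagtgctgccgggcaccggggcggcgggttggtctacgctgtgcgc
UBE2L3: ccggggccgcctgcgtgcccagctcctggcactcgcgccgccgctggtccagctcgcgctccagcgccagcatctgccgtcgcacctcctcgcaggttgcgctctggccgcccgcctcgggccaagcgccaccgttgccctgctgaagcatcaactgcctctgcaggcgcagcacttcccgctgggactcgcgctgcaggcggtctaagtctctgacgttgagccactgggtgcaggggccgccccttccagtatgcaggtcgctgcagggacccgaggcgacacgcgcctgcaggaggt
UBE2D3: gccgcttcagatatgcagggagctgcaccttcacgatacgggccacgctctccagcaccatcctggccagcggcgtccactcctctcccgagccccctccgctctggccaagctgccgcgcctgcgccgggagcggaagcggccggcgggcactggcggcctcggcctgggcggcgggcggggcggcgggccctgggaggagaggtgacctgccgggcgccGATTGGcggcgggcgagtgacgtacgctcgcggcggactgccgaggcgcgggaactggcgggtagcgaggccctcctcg
UBE2T: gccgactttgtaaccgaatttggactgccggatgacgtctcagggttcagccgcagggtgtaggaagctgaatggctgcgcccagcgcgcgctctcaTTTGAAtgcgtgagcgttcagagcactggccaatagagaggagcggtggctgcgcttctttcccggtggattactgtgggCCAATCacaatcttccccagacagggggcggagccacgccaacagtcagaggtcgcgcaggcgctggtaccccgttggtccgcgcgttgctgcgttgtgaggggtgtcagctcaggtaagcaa

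The 4 promoters of genes that fell held 69.0% to 75.7% G and C, and that of UBE2T held 60.7%. The median was 70.5% over the 38 E2 entries and 58.7% over all 35116 entries. The letters CCAATAAA and TTTTATTG, which resemble sites of posterior HOX proteins, were in 0 of the 38 entries, against 0.934% and 1.38% of all entries; they can overlap each other where one is read on the reverse strand. The E2F letters TTTCCCGC were in 0 of 38, against 1.63% of all. At shares this low among all entries, 0 of 38 does not show a lack of the HOX-like or E2F letters. The ETS letters CCGGAAG were in 6 of 38 entries (15.8%), those of UBE2E3, UBE2F, UBE2G2, UBE2J2, UBE2N and UBE2V1, against 10.3% of all. The reversed CCAAT box GATTGG was in 7 entries (18.4%) of 5 genes, UBE2D3 and UBE2T among them, against 15.1% of all. TTTGAA, the CHR element of cell-cycle genes, was in 3 entries (7.89%), those of UBE2F, UBE2F-SCLY and UBE2T, against 15.2% of all. The NRF1 palindrome was in 1 entry, that of UBE2K, against 1.24% of all. A match is a description of the letters only.

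E2 levels spanned a wide range in these cells. On the FPKM scale 12 genes had a mean of at least 40, 15 lay from 10 to 40 and 10 lay under 10. UBE2S, which extends chains on substrates of the anaphase-promoting complex (APC/C), was the most abundant at 182 and 179 FPKM with the empty vector and 164 and 158 FPKM with HOXD13. UBE2D3, a broad-range E2 for RING ligases, was next at 114 and 117 against 102 and 107 FPKM. These top genes were lower in both HOXD13 libraries than in both empty-vector libraries. UBE2T, the E2 of the Fanconi anaemia pathway, came after them at 101 and 94.2 against 88.2 and 88.5 FPKM. UBE2E1, another E2 for RING ligases, followed at 74.6 and 78.5 against 74.01 and 75.5 FPKM, and its range overlapped that of UBE2M. Of the 36 pairs of neighbours in the order of mean levels, 22 overlapped over the 4 libraries, and UBE2S, UBE2D3 and UBE2T each stood clear of the next gene.

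At the low end, UBE2L6, the E2 for ISG15, had 2.16 and 3.04 FPKM with the empty vector and 2.54 and 2.11 FPKM with HOXD13. UBE2Q2P2 did not exceed 1.24 FPKM. UBE2NL had 1.06 expected counts in empty-vector replicate 1 and 0 in the other 3 libraries, and UBE2MP1 had 0 in all 4. Neither was tested. The FPKM of the 37 genes summed to 1295 and 1304 with the empty vector and 1223 and 1213 with HOXD13. That was 0.289% and 0.291% against 0.280% and 0.274% of the FPKM of all genes, so both HOXD13 libraries were lower. Among all tested genes at a mean of 20 FPKM or more, 42.9% also lay lower in both HOXD13 libraries. The 8 most abundant genes made up 52.8% to 54.4% of the sum. In bulk RNA, fewer cells that make a transcript and less of it per cell cannot be told apart.

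**Figure D2:**
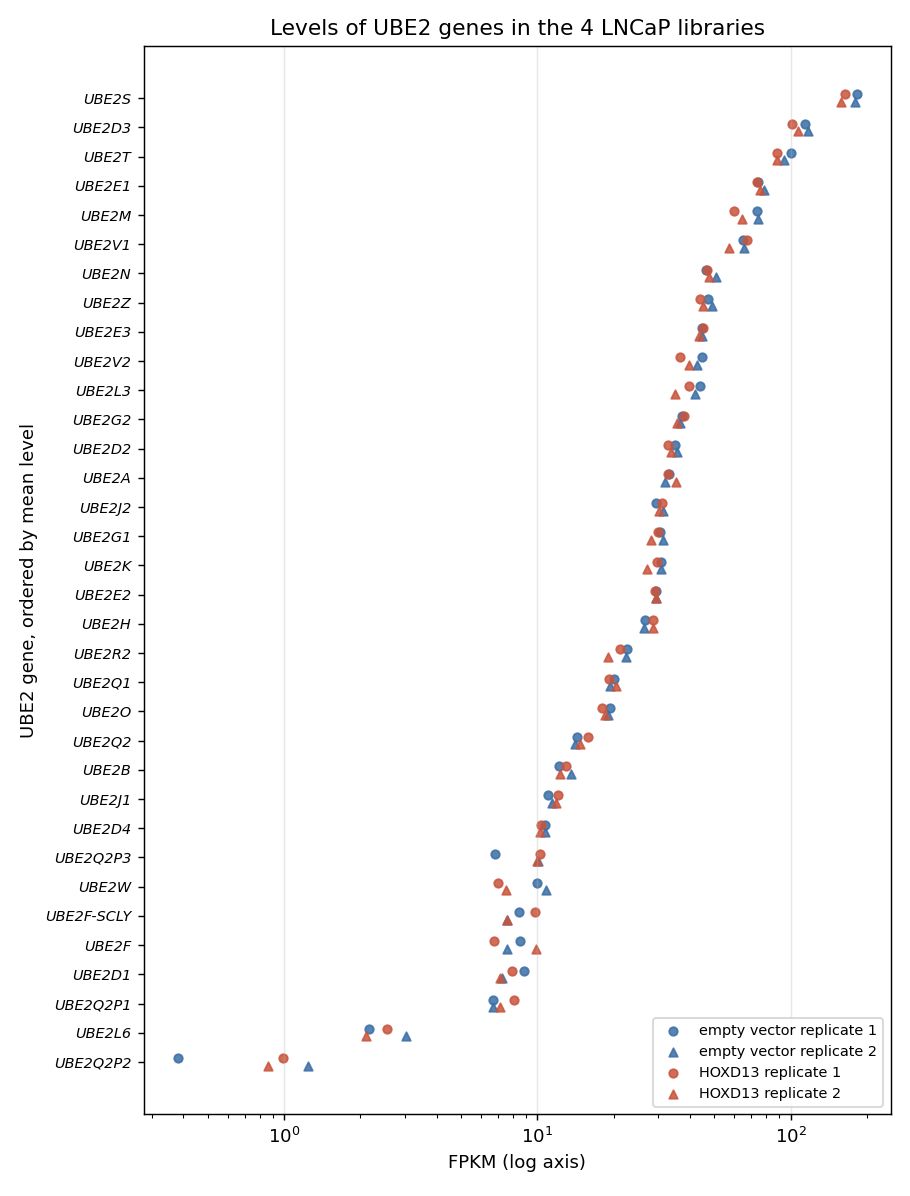
FPKM (x axis, log scale) of tested UBE2 genes, ordered by mean level, with empty-vector libraries in blue and HOXD13 libraries in red. UBE2S leads at 158 to 182 FPKM, and UBE2L6 and UBE2Q2P2 lie lowest.

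On the FPKM scale the groups did not overlap for 19 of the 35 tested genes, 15 lower and 4 higher with HOXD13. That is 54.3%, where 54.1% of all tested genes did not overlap, 24.8% lower and 29.3% higher. At 20 FPKM or more, 12 of 21 E2 genes and 42.9% of all tested genes lay lower in this sense. The 4 that lay higher, none of them called, were UBE2H, UBE2Q2, UBE2J1 and UBE2Q2P1.

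Of the E2 enzymes for NEDD8, UBE2M fell and UBE2F was not called. UBE2M (gene ID 9040) charges NEDD8 for transfer to most cullins, the scaffolds of a large family of ubiquitin ligases. It had 73.8 and 74.4 FPKM with the empty vector and 59.8 and 64.2 FPKM with HOXD13, so both HOXD13 libraries were lower. The means were 74.1 ± 0.424 and 62.02 ± 3.09 FPKM (SD, n = 2), and the log2 fold change from counts was -0.27 (SE 0.0587), at an edgeR adjusted p of 0.00122. The call was kept whichever library was omitted and with limma on log2(FPKM + 1). UBE2F, which serves the cullin CUL5, had 8.5 and 7.58 FPKM with the empty vector and 6.75 and 9.89 FPKM with HOXD13. Its HOXD13 libraries lay on either side of the empty-vector pair, with a log2 fold change of 0.03 (95% interval -0.29 to 0.35). UBE2M was 6.49 to 9.82 times as abundant as UBE2F, and the groups overlapped in that ratio.

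UBE2F shares sequence with UBE2F-SCLY, which runs on into the neighbouring gene, and both had fractional counts. UBE2F had 144 and 115 expected counts with the empty vector and 127 and 182 with HOXD13. UBE2F-SCLY had 193 and 156 against 249.7 and 188. HOXD13 replicate 1 was thus the lower of its pair for UBE2F and the higher for UBE2F-SCLY. Summed, a step added after the data were seen, they had 336 and 271 against 377 and 369.9 counts and a log2 fold change of 0.07 (SE 0.0897, edgeR adjusted p 0.661). Each gene alone is uncertain by the reads they share.

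Among 23 tested genes of the NEDD8 and cullin-RING system, 0 rose, 4 fell and 19 were not called (median log2 fold change -0.03). That is 17.4% called, against 16.0% of all tested genes, and the unadjusted edgeR p was under 0.05 for 6 lower and 1 higher, DESeq2 called 3 lower and 0 higher, and limma 0 and 0. The cullin CUL1 went from 26.5 ± 1.51 to 21.7 ± 0.757 FPKM (log2 change -0.30, adjusted p 0.00198), a call lost when omitting empty-vector replicate 2 (0.0517). CUL3 went from 11.2 ± 0.523 to 9.48 ± 0.127 FPKM (-0.25, 0.0105), a call lost when omitting empty-vector replicate 1 (0.146). CUL4A went from 44.1 ± 2.31 to 38.6 ± 1.34 FPKM (-0.21, 0.00428), a call lost when omitting empty-vector replicate 2 (0.131). The fourth was CAND1, which exchanges cullin adaptors, at -0.15, named after its values were seen. Omitting either empty-vector library left 2 falls. CUL5, the partner of UBE2F, had a log2 change of -0.08 and was not called.

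Of 14 tested SUMO ligases and proteases 1 rose, 2 fell and 11 were not called (median 0.02). The share called was 21.4%, against 16.0% of all tested genes. Their unadjusted edgeR p was under 0.05 for 3 lower and 2 higher, DESeq2 called 1 lower and 1 higher, and limma 0 and 0. The SUMO ligase PIAS2 went up from 11.9 ± 0.559 to 15.1 ± 0.0141 FPKM (log2 change 0.33, adjusted p 0.00193), a call lost when omitting empty-vector replicate 1 (0.0525). RANBP2, a nucleoporin with SUMO ligase activity, fell by 0.17 on the log2 scale, a call lost when omitting HOXD13 replicate 2 (0.123). The SUMO protease SENP3 fell by 0.18, a call lost whichever library was omitted (0.0612 to 0.186).

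Of the 14 E2 enzymes grouped here as building proteasomal chains or serving many ligases, 2 fell, 0 rose and 12 were not called. Their median log2 fold change was -0.10, with 13 values below 0. The group also takes in UBE2T and UBE2W, whose own roles are given elsewhere. UBE2S (gene ID 27338), given above by library, went from means of 181 ± 2.02 to 161 ± 4.504 FPKM (SD, n = 2), a fall of 11.8%. Its log2 fold change was -0.18 (SE 0.0442), at an adjusted p of 0.00392. The UBE2S call was lost when omitting empty-vector replicate 1 (0.0509). UBE2D3 (gene ID 7323) went from 116 ± 2.02 to 104 ± 4.15 FPKM, a log2 fold change of -0.17 (SE 0.0428) at an adjusted p of 0.00627. The UBE2D3 call was lost when omitting empty-vector replicate 2 (0.0763) or HOXD13 replicate 1 (0.0750). With limma on log2(FPKM + 1) neither passed, UBE2S at 0.0598 and UBE2D3 at 0.111. UBE2D3 had fractional counts and an overlapping antisense gene in RefSeq, whose reads cannot be told apart without a stated strand.

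UBE2D3 has 3 close paralogs, all at lower levels. UBE2D2 had 34.8 and 35.5 FPKM with the empty vector and 32.95 and 33.7 FPKM with HOXD13, with its groups apart (log2 fold change -0.09, adjusted p 0.351). UBE2D4 had 10.7 and 10.7 against 10.3 and 10.2 FPKM (-0.07, 0.664). UBE2D1 had 8.84 and 7.23 against 7.91 and 7.14 FPKM, and its groups overlapped (-0.11, 0.644). UBE2D3 was 3.08 to 3.3 times as abundant as UBE2D2, 9.84 to 10.97 times UBE2D4 and 12.8 to 16.2 times UBE2D1. The first 2 of these ratios were lower in both HOXD13 libraries.

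The UBE2E genes, E2 enzymes for RING ligases with an extended N terminus, stayed uncalled. The log2 fold change was -0.04 for UBE2E1 (95% interval -0.15 to 0.06), -0.02 for UBE2E2 (-0.19 to 0.14) and -0.04 for UBE2E3 (-0.19 to 0.11). The intervals of UBE2E2 and UBE2E3 took in the change of the called gene UBE2D3, -0.17. UBE2E3 had 44.8 and 44.8 against 45.1 and 43.6 FPKM. UBE2E2 had 29.3 and 29.5 against 29.1 and 29.5 FPKM, and the groups of all 3 overlapped.

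UBE2R2 and UBE2K, E2 enzymes of K48-linked chains, the classical proteasome signal, lay just outside the threshold. UBE2R2, the paralog of the SCF enzyme CDC34, had 22.6 and 22.4 FPKM with the empty vector and 21.2 and 19.1 FPKM with HOXD13 (log2 fold change -0.17, adjusted p 0.0518). UBE2K, which elongates such chains, had 30.9 and 30.8 against 29.6 and 27.1 FPKM (-0.14, 0.0620). Both lay lower in both HOXD13 libraries, with HOXD13 replicate 2 the lowest. Among the omitted libraries, only leaving out HOXD13 replicate 1 brought them past the threshold. That fit had the lowest library as its sole HOXD13 sample. DESeq2 and limma on log2(FPKM + 1) called neither. UBE2G1, which extends chains on cullin substrates, had 30.4 and 31.5 against 29.97 and 28.2 FPKM (-0.10, 0.206). CDC34 itself had a log2 change of 0.03 (adjusted p 0.870).

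UBE2H, the E2 of the CTLH ligase complex, had 26.5 and 26.4 FPKM with the empty vector and 28.7 and 28.6 FPKM with HOXD13. Both HOXD13 libraries were higher, and the log2 fold change of 0.10 (95% interval 0.00 to 0.21) was not called (adjusted p 0.163). Of 11 tested CTLH genes 0 rose, 1 fell and 10 were not called, or 9.09% called, against 16.0% of all tested genes. Their unadjusted edgeR p was under 0.05 for 1 lower and 2 higher, DESeq2 called 0 lower and 0 higher, and limma 0 and 0. The gene that fell was MAEA, a catalytic RING subunit (log2 change -0.23, adjusted p 0.0138), a call lost when omitting empty-vector replicate 1 (0.0988) or HOXD13 replicate 1 (0.0522).

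UBE2S and UBE2T are known to peak in dividing cells, and cell-cycle genes were lower in the same libraries. UBE2T was not called (log2 fold change -0.16, 95% interval -0.29 to -0.03, adjusted p 0.0943). Of 28 tested cell-cycle genes 0 rose, 20 fell and 8 were not called, at a median log2 fold change of -0.21. The share called was 71.4%, against 16.0% of all tested genes. Most of the list lay above 20 FPKM, where 20.9% of all tested genes fell at a median of -0.06. For that list the unadjusted edgeR p was under 0.05 for 22 lower and 0 higher, DESeq2 called 16 lower and 0 higher, and limma 4 and 0, and omitting 1 library left 15 to 19 falls. The mitotic kinase PLK1 fell from 65.8 ± 4.91 to 52.4 ± 0.474 FPKM (log2 change -0.34). The checkpoint kinase BUB1B fell from 40.6 ± 2.74 to 32.6 ± 0.2404 FPKM (-0.33), and the helicase subunit MCM7 from 133 ± 1.03 to 109 ± 5.26 FPKM (-0.31). The part of these genes in the values of UBE2S and UBE2T was not tested.

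Among 14 tested APC/C subunits, the ligase that UBE2S serves, 0 rose, 2 fell and 12 were not called. The share called was 14.3%, against 16.0% of all tested genes. Their unadjusted edgeR p was under 0.05 for 3 lower and 0 higher, DESeq2 called 1 lower and 0 higher, and limma 0 and 0. ANAPC1, a scaffold subunit, fell from 19.7 ± 0.2899 to 16.2 ± 0.127 FPKM (log2 change -0.30, adjusted p 6.55e-05), a call kept whichever library was omitted but missed with limma on log2(FPKM + 1) (0.0625). CDC23 fell from 22.4 ± 0.361 to 19.5 ± 0.608 FPKM (-0.21, 0.0418), a call lost when omitting empty-vector replicate 1 (0.104), empty-vector replicate 2 (0.184) or HOXD13 replicate 1 (0.203). Among 13 tested Fanconi anaemia genes, UBE2T included, 0 rose, 1 fell and 12 were not called. The share called was 7.69%, against 16.0% of all tested genes. Their unadjusted edgeR p was under 0.05 for 4 lower and 0 higher, DESeq2 called 0 lower and 0 higher, and limma 0 and 0. The one that fell was FANCG, a core complex subunit (-0.22, 0.0333), a call lost whichever library was omitted (0.0702 to 0.182).

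Of the 5 E2 genes of histone and DNA damage signalling, UBE2V2 fell and 4 were not called. UBE2N pairs with UBE2V1 or UBE2V2, which have no catalytic cysteine, to build K63-linked chains that act as signals. UBE2V2 (gene ID 7336) had 44.9 and 42.7 FPKM with the empty vector and 36.7 and 39.6 FPKM with HOXD13, lower in both HOXD13 libraries. The means went from 43.8 ± 1.52 to 38.2 ± 2.05 FPKM (SD, n = 2), with a log2 fold change of -0.22 (SE 0.0753) at an adjusted p of 0.0476. The UBE2V2 call was lost when omitting empty-vector replicate 1 (0.263), empty-vector replicate 2 (0.0716) or HOXD13 replicate 1 (0.290), and missed with the DESeq2 Wald test (0.173) and limma on log2(FPKM + 1) (0.116). RefSeq lists an antisense gene that overlaps UBE2V2 too. UBE2N had 46.1 and 50.6 FPKM with the empty vector and 46.9 and 47.6 FPKM with HOXD13, and its groups overlapped (log2 fold change -0.05, 95% interval -0.16 to 0.07).

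UBE2V1 varied mainly within the HOXD13 group. It had 65.05 and 65.5 FPKM with the empty vector and 67.5 and 57.3 FPKM with HOXD13, where HOXD13 replicate 1 was the highest of the 4 libraries and replicate 2 the lowest. Its log2 fold change was -0.08 (adjusted p 0.443), against -0.20 (0.0152) omitting HOXD13 replicate 1 and 0.03 (0.815) omitting replicate 2. Summed with TMEM189 and TMEM189-UBE2V1, a step added after the data were seen, it had 1524 and 1413 against 1751 and 1578 counts and a log2 fold change of -0.05 (adjusted p 0.558). Of 10 tested K63-chain partners of UBE2N 0 rose, 0 fell and 10 were not called, where 16.0% of all tested genes were called. Their unadjusted edgeR p was under 0.05 for 1 lower and 0 higher, DESeq2 called 0 lower and 0 higher, and limma 0 and 0. The lowest adjusted p there was that of the ligase RNF5 (0.0678, log2 change -0.24).

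UBE2A and UBE2B, the human counterparts of yeast RAD6, act with RAD18 at stalled replication forks and with RNF20 and RNF40 on histone H2B. UBE2A had 33.1 and 31.96 FPKM with the empty vector and 32.9 and 35.3 FPKM with HOXD13 (log2 fold change 0.08, 95% interval -0.07 to 0.23). UBE2B had 12.1 and 13.5 against 12.9 and 12.3 FPKM (-0.04, -0.25 to 0.17). Groups overlapped for both, and UBE2A was 2.36 to 2.88 times as abundant as UBE2B.

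UBE2L3, which passes ubiquitin to the cysteine of HECT and RBR ligases, fell. UBE2L3 (gene ID 7332) had 43.98 and 42.04 FPKM with the empty vector and 39.6 and 34.99 FPKM with HOXD13, lower in both HOXD13 libraries. The means went from 43.01 ± 1.37 to 37.3 ± 3.24 FPKM (SD, n = 2), and the change from counts was -0.22 on the log2 scale (SE 0.0574) at an adjusted p of 0.00741. The UBE2L3 call was lost when omitting empty-vector replicate 1 (0.0831) or HOXD13 replicate 2 (0.144), and it missed with limma on log2(FPKM + 1) (0.152). UBE2L6, its relative, had only 23 to 32 counts per library, and its log2 fold change of -0.26 had a 95% interval of -0.92 to 0.41. Of 7 tested ISG15 system genes 0 rose, 0 fell and 7 were not called, where 16.0% of all tested genes were called. Their unadjusted edgeR p was under 0.05 for 3 lower and 1 higher, DESeq2 called 0 lower and 0 higher, and limma 0 and 0. ISG15 itself went from 55.9 ± 3.27 to 46.5 ± 5.204 FPKM (log2 change -0.28, adjusted p 0.0620), and 2 of the list were called lower when HOXD13 replicate 2 was omitted.

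The ligases served by UBE2L3 or UBE2D enzymes follow in 3 lists, and omitting empty-vector replicate 1 left 0 rises in each. Of 15 tested HECT ligases 1 rose, 3 fell and 11 were not called (26.7% called against 16.0% of all tested genes, median log2 fold change -0.06). There the unadjusted edgeR p was under 0.05 for 4 lower and 1 higher, DESeq2 called 1 lower and 1 higher, and limma 0 and 0. Omitting 1 library left 1 to 3 falls, with 1 left for empty-vector replicate 1, empty-vector replicate 2 or HOXD13 replicate 1. The large ligase HUWE1 fell from 51.2 ± 1.45 to 46.2 ± 2.001 FPKM (log2 change -0.16, adjusted p 7.90e-04), a call kept whichever library was omitted but missed with limma on log2(FPKM + 1) (0.165). NEDD4L, a regulator of membrane channels, rose from 33.3 ± 0.9405 to 37.8 ± 0.0849 FPKM (0.17, 0.00205), a call lost when omitting empty-vector replicate 1 (0.0954). TRIP12 fell (-0.15, 0.0316), a call lost when omitting empty-vector replicate 1 (0.0729), empty-vector replicate 2 (0.232) or HOXD13 replicate 1 (0.119).

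Of 12 tested RBR ligases and ligase subunits 1 rose, 1 fell and 10 were not called. At 16.7% called, this is near the 16.0% of all tested genes. For these the unadjusted edgeR p was under 0.05 for 1 lower and 1 higher, DESeq2 called 0 lower and 0 higher, and limma 0 and 0. RNF19A, the gene that rose, had no adjusted p in DESeq2 and could not be called there. RNF19A rose from 4.33 ± 0.141 to 5.83 ± 0.262 FPKM (0.42, 0.0166), a call lost when omitting empty-vector replicate 1 (0.0984) or HOXD13 replicate 1 (0.115). SHARPIN, a subunit of the linear chain ligase, fell (-0.24, 0.0490), a call lost whichever library was omitted (0.102 to 0.168). Of 15 tested RING and U-box ligases that use UBE2D enzymes, RING partners included, 1 rose, 2 fell and 12 were not called. That is 3 of 15 called, against 16.0% of all tested genes. Here the unadjusted edgeR p was under 0.05 for 4 lower and 1 higher, DESeq2 called 1 lower and 0 higher, and limma 1 and 0. DESeq2 gave no adjusted p for BMI1, 1 of the 2 that fell. The corepressor TRIM28 fell from 200.1 ± 6.37 to 168 ± 0.156 FPKM (-0.27, 5.26e-07), a call kept whichever library was omitted and with limma on log2(FPKM + 1). The Polycomb subunit BMI1 fell from 11.9 ± 1.56 to 8.595 ± 0.827 FPKM (-0.50, 0.00101), a call lost when omitting empty-vector replicate 1 (0.0505). MDM4, an inhibitor of p53, rose (0.16, 0.0193), a call lost when omitting empty-vector replicate 1 (0.201), empty-vector replicate 2 (0.0762) or HOXD13 replicate 2 (0.0536).

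The 3 E2 enzymes of quality control in the endoplasmic reticulum (ER) were not called, while 7 of their partners rose. UBE2G2 acts at the ER surface, and UBE2J1 and UBE2J2 are anchored in the ER membrane. UBE2G2 had 37.3 and 36.6 FPKM with the empty vector and 37.8 and 35.5 FPKM with HOXD13 (log2 fold change -0.03, 95% interval -0.14 to 0.08). UBE2J2 had 29.4 and 31.4 against 30.9 and 30.3 FPKM (0.00, -0.14 to 0.14). UBE2J1 had 11.02 and 11.5 against 12.1 and 11.8 FPKM (0.07, -0.09 to 0.24), just higher in both HOXD13 libraries. For these 3 genes 0 passed an unadjusted edgeR p under 0.05 and DESeq2 called 0.

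Of 15 tested ER partners 7 rose, 2 fell and 6 were not called, which is 60.0% called, against 16.0% of all tested genes, at a median log2 fold change of 0.15. There the unadjusted edgeR p was under 0.05 for 2 lower and 7 higher, DESeq2 called 1 lower and 4 higher, and limma 0 and 2. The channel subunit DERL1 rose from 23.3 ± 0.219 to 30.8 ± 1.64 FPKM (log2 change 0.38, adjusted p 4.75e-05). The DERL1 call was kept whichever library was omitted and with limma on log2(FPKM + 1). UFD1L, which helps to extract substrates, fell from 34.5 ± 1.37 to 28.6 ± 2.02 FPKM (-0.28, 0.0134), a call lost when omitting empty-vector replicate 2 (0.0921) or HOXD13 replicate 2 (0.139). SYVN1, SEL1L, HERPUD1, UBXN4 and FAF2 also rose and VCP also fell, and they are named after their values were seen. Omitting 1 library left 5 to 7 rises and 0 to 2 falls, with 0 falls for empty-vector replicate 2 and 1 for HOXD13 replicate 2. Whether partners and E2 genes differ from each other was not tested.

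The 4 large and atypical members were not called, with 1 lower and 0 higher at an unadjusted edgeR p under 0.05 and 0 by DESeq2. UBE2Z, which receives ubiquitin from UBA6, had 47.2 and 48.9 FPKM with the empty vector and 43.7 and 45.2 FPKM with HOXD13 (log2 fold change -0.13, 95% interval -0.23 to -0.03, adjusted p 0.0822). Both HOXD13 libraries were lower. UBE2O, with both E2 and E3 activity, had 19.3 and 19.1 against 18.04 and 18.5 FPKM (-0.09, adjusted p 0.363). UBE2Q1 had 20.02 and 19.3 against 19.2 and 20.5 FPKM (0.00, 95% interval -0.15 to 0.15). UBE2Q2 had 14.3 and 14.1 against 15.9 and 14.8 FPKM (0.10, adjusted p 0.524), higher in both HOXD13 libraries.

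UBE2Q2 and its 3 pseudogene copies in the table had fractional counts. UBE2Q2P3 had 6.78 and 10.02 FPKM with the empty vector and 10.2 and 9.98 FPKM with HOXD13, where empty-vector replicate 1 stood below the other 3 libraries. Its log2 fold change was 0.26 (SE 0.186, adjusted p 0.402), and -0.01 omitting that library. UBE2Q2P1 had 6.67 and 6.7 against 8.11 and 7.12 FPKM (0.17, 0.496). UBE2Q2P2 had 0.38 and 1.24 against 0.99 and 0.86 FPKM (0.16, 95% interval -0.90 to 1.21). Summed over the 4, a step added after the data were seen, they had 520.1 and 498 against 689.5 and 624 counts and a log2 fold change of 0.14 (SE 0.0698, edgeR adjusted p 0.189).

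UBE2W, which attaches ubiquitin to the N terminus of proteins, differed between the count and the FPKM scale, and was singled out after its values were seen. Its expected counts were 303 and 272 with the empty vector and 341 and 297 with HOXD13, a log2 fold change of -0.08 (95% interval -0.27 to 0.11, edgeR adjusted p 0.652). Its FPKM were 10.01 and 10.8 against 7 and 7.5, and limma on log2(FPKM + 1) called it lower (-0.47, adjusted p 0.0416). Counts thus overlapped between groups and FPKM did not. FPKM also depends on the length that RSEM gives a gene, an average over its transcripts, 6 in the table, weighted by their estimated abundance. That length was 3927 and 3641 bases with the empty vector and 5660 and 4721 bases with HOXD13, longer by a factor of 1.37. Among 5223 tested genes whose length varied by over 1 base, 5, UBE2W included, had a ratio at least this far from even with groups apart (0.0957%). The limit is UBE2W's own ratio, so this share is not a test. The length comes without an error and was not tested. UBE2W had fractional counts, which arise where reads also match other genes.

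**Figure D3:**
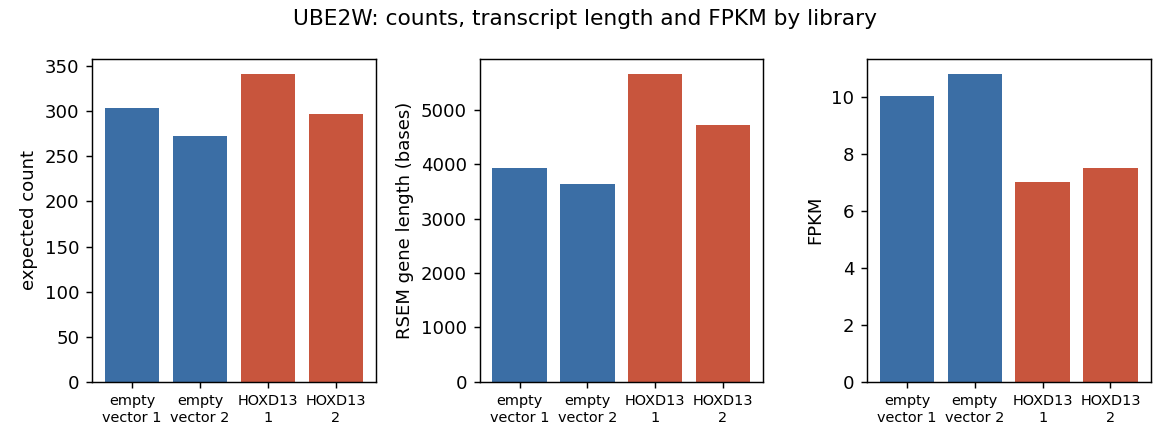
Expected count, RSEM gene length in bases and FPKM of UBE2W in each of the 4 libraries (bars from 0; blue, empty vector; red, HOXD13). Counts overlap between the groups, while lengths are higher and FPKM lower in both HOXD13 libraries.

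Few other members varied in length. Of 16 tested genes with several transcripts, 3 moved by over 50 bases, namely UBE2W, UBE2L6 and UBE2A. UBE2L6 ranged from 1324 to 1639 bases at its low counts. UBE2A was at 1859 and 1848 against 1898 and 1882 bases. The 19 tested genes with 1 transcript had a fixed length.

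Upstream of the E2 enzymes, some modifier and E1 genes fell and 0 rose. Of all tested genes 8.11% fell and 7.91% rose, and at a mean of 20 FPKM or more 20.9% fell. Of 14 tested modifier genes 0 rose, 4 fell and 10 were not called (median log2 fold change -0.10). The share called was 28.6%, against 16.0% of all tested genes. Their unadjusted edgeR p was under 0.05 for 8 lower and 0 higher, DESeq2 called 1 lower and 0 higher, and limma 0 and 0. RPS27A, a ubiquitin fusion gene, fell from 429.9 ± 4.31 to 395 ± 5.83 FPKM (log2 change -0.13, adjusted p 0.0143), a call lost when omitting empty-vector replicate 1 (0.0851), empty-vector replicate 2 (0.0811) or HOXD13 replicate 1 (0.0960). FAU, a ubiquitin-like fusion gene, fell from 478 ± 3.302 to 442 ± 26.3 FPKM (-0.13, 0.0408), a call lost when omitting empty-vector replicate 1 (0.163), empty-vector replicate 2 (0.110) or HOXD13 replicate 1 (0.430). Both also encode ribosomal proteins. The polyubiquitin gene UBB, named after its values were seen, also fell (-0.09, 0.0372). The falls numbered 0 omitting empty-vector replicate 1 or HOXD13 replicate 1, 1 omitting empty-vector replicate 2 and 7 omitting HOXD13 replicate 2.

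Of 10 tested E1 genes 0 rose, 3 fell and 7 were not called (median -0.11). That is 30% called, against 16.0% of all tested genes. Their unadjusted edgeR p was under 0.05 for 4 lower and 1 higher, DESeq2 called 2 lower and 0 higher, and limma 1 and 0. UBA1, the main ubiquitin E1, fell from 121 ± 2.31 to 110.3 ± 3.16 FPKM (-0.15, 0.00346), a call lost when omitting empty-vector replicate 1 (0.0637). SAE1, of the SUMO E1, fell from 40.4 ± 1.24 to 34.8 ± 1.24 FPKM (-0.23, 0.00828), a call lost when omitting empty-vector replicate 2 (0.0889) or HOXD13 replicate 1 (0.0766). NAE1, of the NEDD8 E1, fell from 67.3 ± 1.65 to 57.4 ± 0.247 FPKM (-0.23, 0.00306), a call lost when omitting empty-vector replicate 1 (0.0537). Omitting empty-vector replicate 1 left 1 fall. Of 7 tested E2 genes outside the UBE2 symbols 0 rose, 0 fell and 7 were not called, where 16.0% of all tested genes were called. Their unadjusted edgeR p was under 0.05 for 1 lower and 0 higher, DESeq2 called 0 lower and 0 higher, and limma 0 and 0. The lowest adjusted p there was that of UFC1, the E2 for UFM1 (0.0804, -0.19).

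Among enzymes that remove ubiquitin, 0 rose, 8 fell and 34 were not called of 42 tested deubiquitinases (median log2 fold change -0.05). The share called was 19.0%, against 16.0% of all tested genes. There the unadjusted edgeR p was under 0.05 for 12 lower and 0 higher, DESeq2 called 3 lower and 0 higher, and limma 0 and 0. USP10 fell from 36.2 ± 2.41 to 30.9 ± 1.301 FPKM (-0.25, 0.00255), a call lost when omitting empty-vector replicate 1 (0.114). YOD1 fell from 7.91 ± 0.544 to 6.55 ± 0.2899 FPKM (-0.28, 0.0250), a call lost when omitting empty-vector replicate 2 (0.226) or HOXD13 replicate 1 (0.145). USP15 fell from 11.8 ± 1.81 to 10.2 ± 0.495 FPKM (-0.23, 0.0301), a call lost when omitting empty-vector replicate 2 (0.517) or HOXD13 replicate 2 (0.0779). Omitting empty-vector replicate 2 left 4 falls, and omitting empty-vector replicate 1 or HOXD13 replicate 2 left 5.

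**Figure D4:**
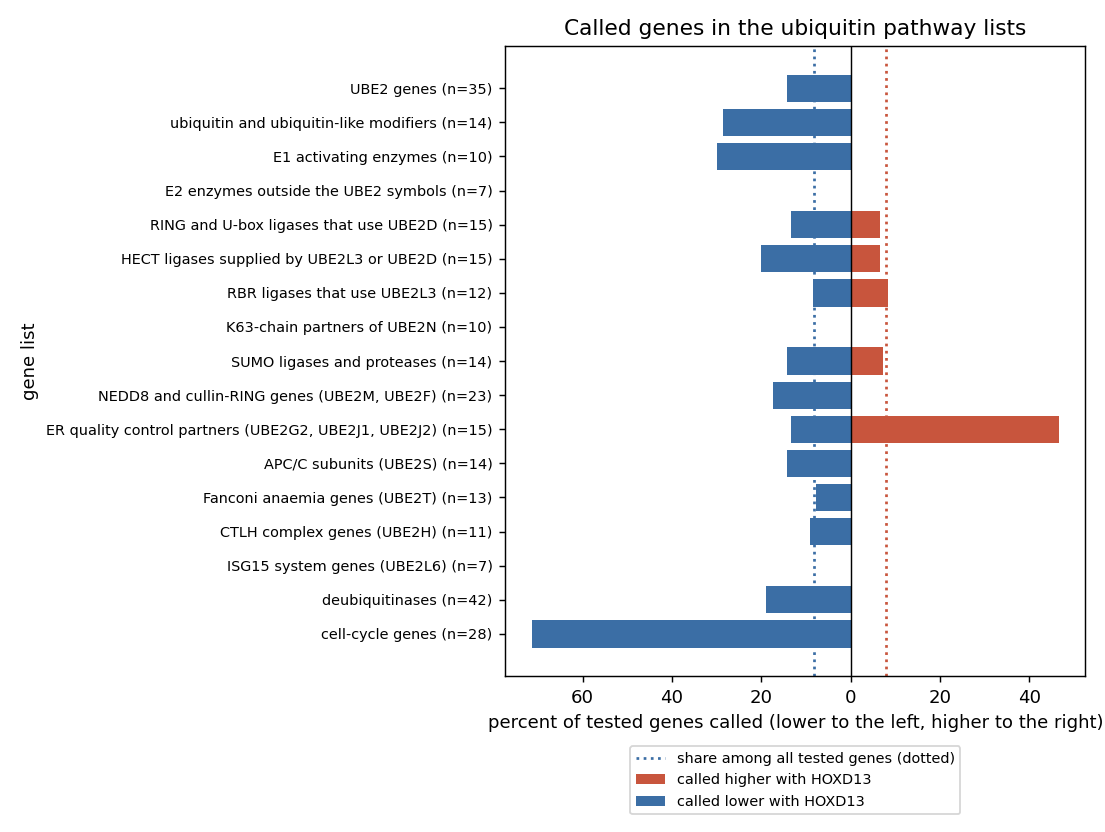
Percent of tested genes called lower (blue, to the left) and higher (red, to the right) with HOXD13 among the UBE2 genes and lists of pathway partners, with the share among all 14112 tested genes as dotted lines. The ER partners reach farthest to the right with 7 of 15 higher, and the cell-cycle genes farthest to the left with 20 of 28 lower.

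Precision limits what can be said of the 30 E2 genes that were not called. For 22 of them the 95% interval of the log2 fold change lay within 0.3 of even in both directions. That bound was not planned in advance and is larger than each of the called falls. Lying within it does not show that a gene was unchanged. Some of the 22 had intervals that excluded 0, such as UBE2T, UBE2K and UBE2Z below it and UBE2H above it. The other 8, whose intervals reached beyond the bound, were UBE2R2, UBE2D1, UBE2F, UBE2F-SCLY, UBE2L6, UBE2Q2P1, UBE2Q2P2 and UBE2Q2P3. Of the 35 tested genes, 16 had fractional expected counts and are uncertain by the reads shared with other genes.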

How the data were processed

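The 4 libraries of LNCaP mRNA were grouped by their labels into 2 with the empty vector and 2 with HOXD13. The submitters' processing notes name Bowtie2, RSEM and the genome builds hg18 and hg19, without roles; tool versions were not found in these sources. The deposited library tables hold RSEM expected counts, gene lengths in bases and FPKM, per the file headers, and a further deposited table joins the FPKM of the 4 libraries. A gene missing from a library's table was set to 0, and expected counts were rounded for tests.

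Members were symbols starting with UBE2 and a letter; 1 such symbol, and the values of some further genes counted among members and lists, are not reported here. The members and lists were chosen with earlier results of these data known. Genes were fitted together in edgeR 4.0.16 (R 4.3.3) with TMM scaling, filterByExpr and the robust quasi-likelihood test. Standard errors are the size of the log2 fold change over the root of its F statistic. The biological coefficient of variation was 2.70%. With 2 libraries a group, an exact permutation test reaches p = 0.333 at best, so none was run. Values by library are given first for called members, the 8 most abundant and the uncalled member with the smallest p in each role; of each partner list, up to 3 called genes by size, or the gene with the smallest p, are named. Alternatives were DESeq2 1.42.0 (size factors, Wald test), limma 3.58.1 on log2(FPKM + 1) or log2(FPKM + 0.1), other filters, a stricter threshold, the replicate block and omitted libraries. The fits were tested on simulated data. Counting strand was not given. Promoter sequences are RefSeq's (GRCh38.p14); protein sequences were not used here.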

Additional observations from a re-analysis of the deposited data

How the results depend on the processing

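The 5 called falls kept their direction under the alternatives run, and their calls depended on the test and on single libraries. UBE2 genes called lower numbered 2 with limma on log2(FPKM + 1), 2 on log2(FPKM + 0.1), 0 with limma without a filter (where UBE2M had an adjusted p of 0.0906) and 2 to 6 with a library omitted. Over all tested genes, higher and lower calls numbered 468 and 599 with the DESeq2 Wald test, 398 and 261 with limma on log2(FPKM + 1), 382 and 265 on log2(FPKM + 0.1), 127 and 47 without its filter and 647 and 633 at an adjusted p under 0.01. With a library omitted they numbered 751 to 927 and 714 to 1064. The median log2 fold change of the tested UBE2 genes ranged from -0.08 to -0.06. With the replicate number as a block, 7 UBE2 genes were called lower and 0 higher, UBE2R2 (0.0336) and UBE2K (0.0380) now among them, and over all tested genes 1226 higher and 1297 lower. Deviations of same-numbered libraries had a correlation of 0.0703 over 14112 genes, so the numbers were not taken as pairing.

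Of 419 values of single genes, 22 changed sign, in 11 genes that were not called, and the cause was not tested. Log2 fold changes with a library omitted ran from -0.20 to 0.0313 for UBE2V1, -0.12 to 0.0182 for UBE2N, -0.0741 to 0.0121 for UBE2G2, -0.0563 to 0.0495 for UBE2J2, -0.0519 to 0.0498 for UBE2Q1, -0.13 to 0.0396 for UBE2B, -0.00907 to 0.55 for UBE2Q2P3, -0.0988 to 0.27 for UBE2F-SCLY, -0.27 to 0.28 for UBE2F, -0.25 to 0.0446 for UBE2D1 and -0.47 to 1.15 for UBE2Q2P2. UBE2Q1 was at 0.0145 with limma on log2(FPKM + 1), 0.0151 on log2(FPKM + 0.1), 0.0145 without its filter and 0.00905 at a mean of at least 50 counts. UBE2J2 was at -0.000422 with DESeq2 size factors, -0.00438 with the DESeq2 Wald test and -0.00158 without a low-count filter. DESeq2 gave no adjusted p for 12290 genes, 9 UBE2 genes among them, and so could not call these. Low counts limit UBE2L6, UBE2Q2P2 and UBE2NL.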
